A study of Mus musculus with 8 samples.

Results

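Ski, Skil, Pmepa1, Tgif1 and Tgif2 are 5 repressors of TGFβ and activin signalling, and they were chosen by the SMAD4 peaks around them. Every peak of either stage with its centre within 100 kb of the 5′ end of one of these genes was taken, on mm9 with the GENCODE vM1 annotation. This gave 17 peaks for 5 of the 22350 protein-coding genes. Of these, 8 belonged to the 2073 peaks listed at E9.5 and 9 to the 6185 peaks listed at E10.5.

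The study mapped the chromatin regions bound by SMAD4 in mouse limb buds by chromatin immunoprecipitation and sequencing (ChIP-seq). All 8 samples came from NMRI embryos homozygous for an allele that adds a triple FLAG tag to SMAD4 (Smad4 3xF/3xF), and the tagged protein was precipitated with the M2 anti-FLAG antibody. Each stage had 2 ChIP samples and 2 input samples. The E9.5 samples were forelimb buds with the trunk attached, which the protocol dates to E9.75, with about 80 embryos pooled per replicate. The E10.5 samples were fore- and hindlimb buds of about 100 pooled embryos per replicate, although the source label names the forelimb for all samples. Stage, tissue and the number of embryos therefore change together and cannot be told apart. No untagged embryo is among these samples.

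The authors merged the replicates of each stage into 1 list, so that the values carry no replicate error and no difference was tested. The depth of the libraries is unknown, so that the absence of a peak does not show that SMAD4 was not bound. The score of a peak has no unit in the lists, and its rank within its own list, with rank 1 for the highest score, is used here. A peak list holds no expression values, so the labelled tissue could not be checked against its marker genes.

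SMAD4 is the partner that activated SMADs of both the TGFβ/activin and the BMP branches take into the nucleus. SKI and SKIL (also called SnoN) bind SMAD complexes and recruit corepressors to them, and TGIF1 and TGIF2 are homeodomain proteins that do so with SMAD2 and SMAD3. PMEPA1 is a membrane protein that holds SMAD2 and SMAD3 away from the receptor. Skil, Pmepa1 and the inhibitory Smad7 are known as genes that the pathway itself induces, a form of negative feedback.

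The following matches of known SMAD recognition sequences are shown because they lie in the best-scored peaks of Skil and Pmepa1. They are read from mm9 on the strand of the gene, 5′ to 3′, with the matched letters in capitals. The SMAD box is CAGAC, or GTCTG on the other strand. The BMP element joins a GC-rich palindrome, GGCGCC, to GTCT over 5 bases. The Skil element lies at chr3:30993474-30993503 on the plus strand, 492 bp upstream of the 5′ end, and the box pair at chr3:30993600-30993629. The Pmepa1 boxes lie on the minus strand at chr2:173102016-173102045, over the 5′ end in an untranslated region, and at chr2:173101082-173101111 in an intron.
Skil BMP element: cggccagGGCGCCcccagGTCTggcccgtc
Skil box pair: tcctGTCTGagccgggcaccgCAGACagcg
Pmepa1 facing boxes at the 5′ end: gcgctgacgtCAGACcGTCTGcctgcctcc
Pmepa1 box run in the intron: tgcgctaGTCTGTCTGTCTGagtctccgcg

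A different recognition sequence, the SMAD palindrome GTCTAGAC, occurred in the 3 weaker E9.5 peaks of Pmepa1, in neither of its E10.5 peaks, and in 1 E10.5 peak each near Ski and Tgif2. These sites were searched in all 17 peaks after the values had been seen. For Pmepa1 they lie on the minus strand at chr2:173165583-173165612 and chr2:173160542-173160571 between genes, and at chr2:173079477-173079506 and chr2:173079757-173079786 in an intron. The Ski site lies between genes at chr4:154623264-154623293 on the minus strand, and the Tgif2 site in an intron at chr2:156671177-156671206 on the plus strand.
Pmepa1 at -63.6 kb: atgctcgccctGTCTAGACaaggagcccgg
Pmepa1 at -58.5 kb: atgtctgaaacGTCTAGACaggttttgggg
Pmepa1 at +22.5 kb: tctttatgactGTCTAGACgtcccgcagat
Pmepa1 at +22.3 kb: ttttgttgtgtGTCTAGACtgcacgccagc
Ski at -26.6 kb: ctggaagttgtGTCTAGACcagggtctggg
Tgif2 at +5.38 kb: cttgagacgggGTCTAGACtcaagttatag

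The 5 genes carried more peaks than protein-coding genes did on average, and differed widely among themselves. At E9.5, 4 of the 5 genes had a peak within 100 kb, beside 20.5% of all protein-coding genes. At E10.5 all 5 genes had one, beside 52.9%. The mean was 1.60 peaks per gene at E9.5 and 1.80 at E10.5, against 0.243 and 1.01 over all protein-coding genes. Since the genes were chosen by these peaks, the counts describe them and are no test. With the E10.5 list cut to its 2073 best-scored peaks, the length of the E9.5 list, 4 E10.5 peaks of 3 of the genes were left.

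Peaks directly over a 5′ end separated the genes more clearly. At E9.5 the 5′ ends of Skil and Pmepa1 lay inside a peak, 2 of 5 genes beside 2.11% of protein-coding genes. At E10.5 this held for Skil, Pmepa1, Tgif1 and Tgif2, 4 of 5 beside 11.3%. Only Skil and Pmepa1 of the 5 had their 5′ end in a peak at both stages, as did 246 protein-coding genes (1.10%). These peaks were also the only ones of the 17 that met a peak of the other stage (a common stretch of 1 bp or more), 2 of 8 and 2 of 9 in the lists. Over all peaks the share was 18.7% of the E9.5 list and 6.26% of the E10.5 list. In the map of peaks around each 5′ end the other peaks of the stages did not overlap, as was the case for most peaks of both lists.

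**Figure D1:**
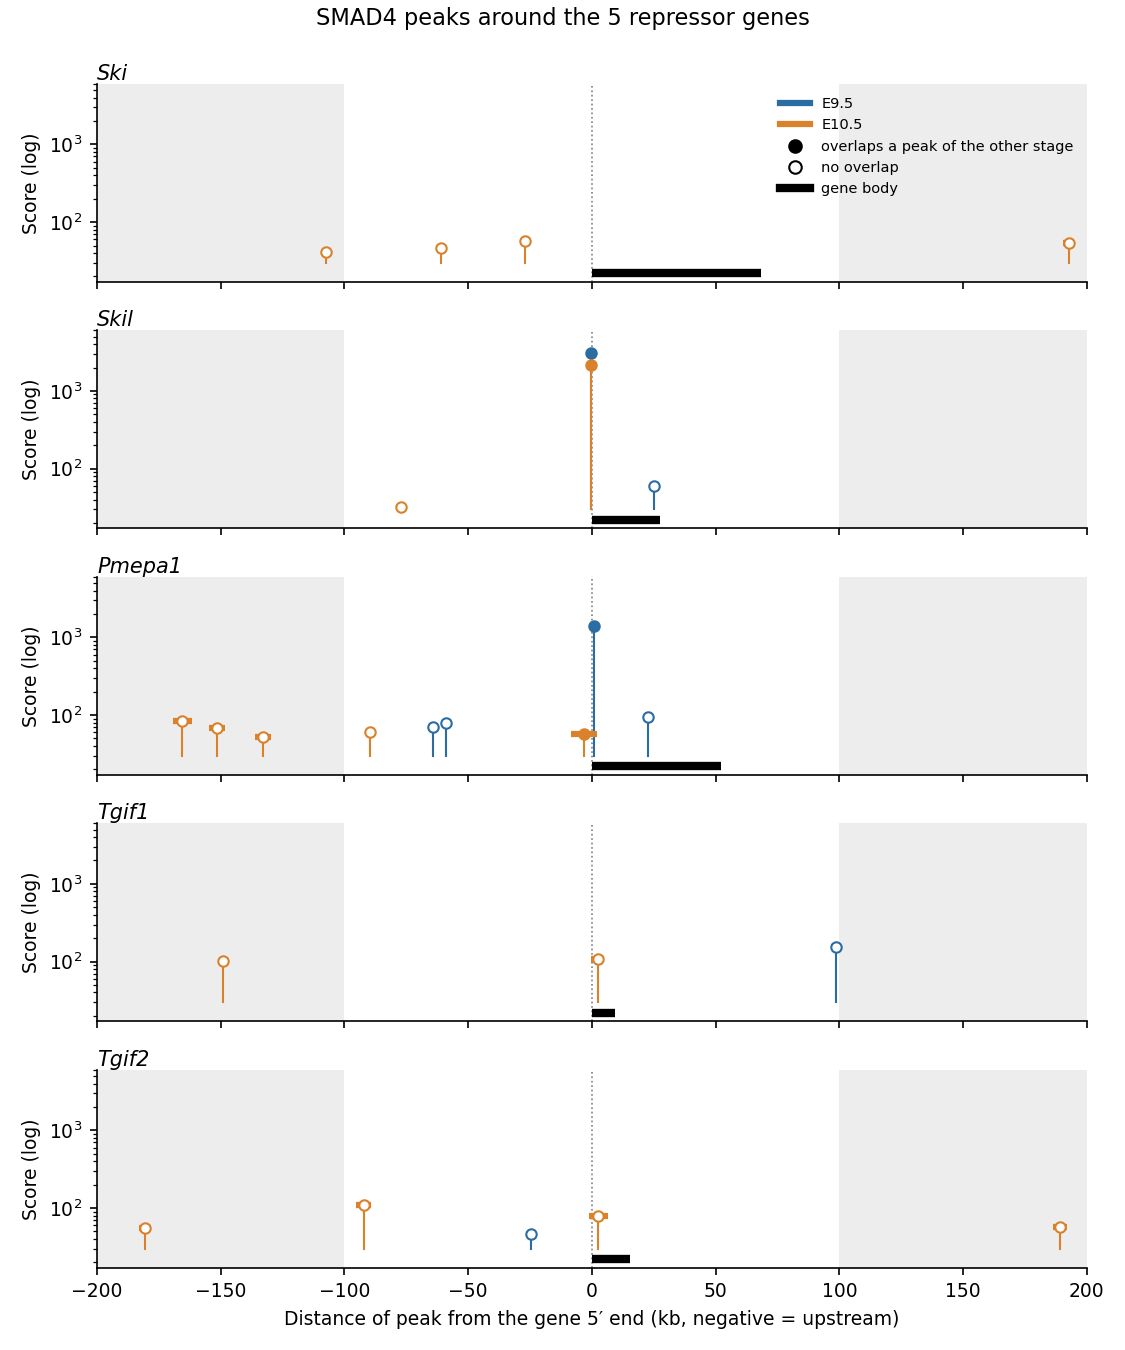
SMAD4 peaks within 200 kb of the 5′ end of each gene, drawn to scale along the distance in kb, with the score on a log axis. Blue marks E9.5 and orange E10.5, filled circles mark peaks that overlap a peak of the other stage, black bars are gene bodies and grey areas lie beyond the 100 kb limit. Filled circles occur at Skil and Pmepa1 alone, and no E9.5 peak is drawn for Ski.

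The corepressor gene Skil (ENSMUSG00000027660.9, chr3:30993980-31021499, plus strand) had the same dominant peak at both stages. At E9.5 it spanned chr3:30991898-30995249 with a score of 3100, which 2 peaks of the list share as the highest. At E10.5 it spanned chr3:30991944-30995045 with a score of 2155, and the next score in that list was 892. The left borders were 46 bp apart, the right borders 204 bp and the centres 79.0 bp. The E10.5 peak lay wholly inside the E9.5 peak and covered 92.5% of it. Both contained 5 of the 7 annotated transcript starts of Skil.

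The other peaks of Skil scored far lower than the dominant peak and were found at 1 stage each. An E9.5 peak at chr3:31018586-31019408 lay 25.0 kb downstream of the 5′ end in an untranslated region of Skil, with a score of 59.5 and rank 832 of 2073. It was 823 bp wide, the narrowest of the 17. An E10.5 peak at chr3:30916039-30918029, 76.9 kb upstream in an intron of Prkci, had a score of 32.5 and rank 6170 of 6185. It was nearer to the 5′ end of Prkci than to that of Skil.

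Pmepa1 (ENSMUSG00000038400.8, chr2:173049959-173102034, minus strand) had 4 peaks at E9.5, and 16 protein-coding genes (0.0716%) had as many. The peak over the 5′ end, chr2:173099870-173102875, had a score of 1383 and rank 4. The other 3 ranked 235, 343 and 445. They were an intronic peak at chr2:173077852-173080829, 22.7 kb downstream with a score of 94.1, and a pair of intergenic peaks upstream. Of this pair, chr2:173159071-173162558 lay 58.8 kb upstream with a score of 79.5, and chr2:173165392-173166923 lay 64.1 kb upstream with a score of 71.1. Pmepa1 had the nearest protein-coding 5′ end to all 4.

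At E10.5 Pmepa1 had 2 peaks within 100 kb. A single broad peak, chr2:173099861-173110408, covered the 5′ end and the upstream sequence over 10548 bp, with a score of 57.5 and rank 3535 of 6185. In that list 45 peaks were wider than 10 kb, and 0 peaks of the E9.5 list were. Its border inside the gene was 9 bp from that of the E9.5 peak, whereas its upstream border lay 7533 bp farther out. It contained the whole E9.5 peak, which made up 28.5% of its width. The 3 weaker E9.5 peaks of Pmepa1 had no E10.5 counterpart, and the second E10.5 peak lay 89.9 kb upstream at chr2:173190559-173193234 with a score of 59.8 and rank 3090. The lower number at E10.5 did not hold within 200 kb, where Pmepa1 had 4 peaks at E9.5 and 5 in the E10.5 list. The 3 added ones lay upstream, and the farthest had rank 948.

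Among the 390 overlapping pairs of the lists, the Pmepa1 pair had the largest ratio of E9.5 to E10.5 score, 24.0, against a median of 1.01. Its ratio of E10.5 to E9.5 width, 3.51, was the 8th largest, against a median of 1.10. The Skil pair had a score ratio of 1.44 and a width ratio of 0.925. Its E9.5 score of 3100 is the highest value of the list and is held by 2 peaks, so that it may be a ceiling, in which case the ratio is a lower bound. Scores of separately called lists are not on a tested common scale, and peak width moves with the Pmepa1 ratio. The part of width or depth in the score ratio was not tested.

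**Figure D2:**
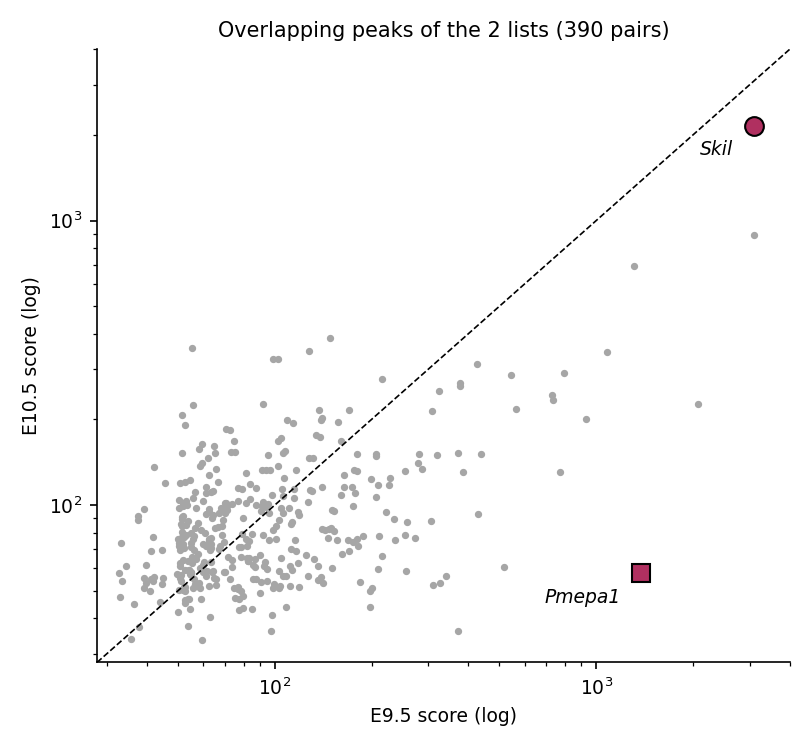
Score at E10.5 against score at E9.5 for the 390 pairs of overlapping peaks, both on log axes, with the dashed line at equal scores. The Skil pair lies at the upper end of both axes with scores of 3100 and 2155, and the Pmepa1 pair lies far below the line with 1383 and 57.5.

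The homeodomain repressor genes Tgif1 and Tgif2 both had a remote peak at E9.5 and a peak over the 5′ end at E10.5. For Tgif1 (ENSMUSG00000047407.10, chr17:71193545-71202886, minus strand), the E9.5 peak at chr17:71102390-71106122 lay 98.6 kb downstream of the 5′ end in an intron of Dlgap1. It had a score of 155 and rank 90. Its centre also lay in an intron of Gm16952, 0.666 kb downstream of an annotated transcript start of that gene. The E10.5 peak, chr17:71197838-71203287, had its centre 2.32 kb inside the gene, a score of 108 and rank 377, and contained 9 of the 11 annotated transcript starts. The E9.5 peak of Tgif1 was the member closest to the 100 kb limit from inside. The closest peak outside the limit was an E10.5 peak 107 kb upstream of Ski, with a score of 40.8 and rank 5796.

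For Tgif2 (ENSMUSG00000062175.6, chr2:156665813-156681306, plus strand), the E9.5 peak at chr2:156640481-156642044 lay 24.6 kb upstream between genes, with a score of 46.9 and rank 1721. The E10.5 peak over the 5′ end, chr2:156664687-156672167, had a score of 80.1 and rank 1162, and contained the 4 transcript starts of Tgif2. A second E10.5 peak, 92.3 kb upstream at chr2:156570356-156576686, scored higher, with 110 and rank 355. That peak lay in Dlgap4, with its centre at -1.16 kb (negative is upstream) from the 5′ end of an annotated Dlgap4 transcript. By the 5′ ends of protein-coding gene records it was nearer to Myl9, 27.6 kb upstream of it, than to Tgif2. A remote E9.5 peak with an E10.5 peak over the 5′ end, as at Tgif1 and Tgif2, was also found at other genes. In all, 2290 protein-coding genes had the 5′ end in an E10.5 peak and in no E9.5 peak. Of these, 516 (22.5%) also had a remote E9.5 peak within 100 kb. This share is near the 20.5% of all protein-coding genes with an E9.5 peak in that window. The 20.5% also counts peaks over a 5′ end, which 2.11% of protein-coding genes had at E9.5.

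The corepressor gene Ski (ENSMUSG00000029050.8, chr4:154528184-154596701, minus strand), the closest relative of Skil, had neither a peak over its 5′ end nor any E9.5 peak. The nearest E9.5 peak was 721 kb upstream and lay 0.385 kb from the 5′ end of Ube2j2. At E10.5 the peak at chr4:154622355-154625482 lay 27.2 kb upstream with a score of 56.9 and rank 3635, with its centre 7.5 bp from the 5′ end of 2610002J02Rik. The other, at chr4:154655149-154659838 in an intron of Prkcz, lay 60.8 kb upstream with a score of 47.0 and rank 5483. Another protein-coding gene was thus nearer to both Ski peaks, as it was to the weak E10.5 peak of Skil and the stronger of Tgif2. By protein-coding 5′ ends alone, 13 of the 17 peaks lay nearest to the gene they were assigned to. These were 8 of 8 at E9.5 and 5 of 9 at E10.5. With the 5′ ends of all annotated transcripts, non-coding ones included, this held for 4 of 8 and 3 of 9.

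Counted over the 17 peaks, the best-scored 10% of each list held 3 of the 8 E9.5 peaks (of Skil, Pmepa1 and Tgif1) and 3 of the 9 E10.5 peaks (of Skil, Tgif1 and Tgif2). The member peaks were broad, with a median width of 2992 bp against 1244 bp in the E9.5 list and 4690 bp against 2552 bp in the E10.5 list. Ranking by score per kb of width in place of score left the best Skil peaks at ranks 3 and 1, but moved the Tgif1 peaks to ranks 1275 and 3816 and the E10.5 peaks of Tgif2 to ranks 4243 and, over the 5′ end, 5529. It also moved the 3 weaker E9.5 peaks of Pmepa1 from ranks 235, 343 and 445 to 1602, 1877 and 1099, and its broad E10.5 peak from rank 3535 to 6150. The plot of score against rank shows that, at E9.5, the peaks over the 5′ ends of Skil and Pmepa1 scored far above the other 6, of which the Tgif1 peak was the highest.

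**Figure D3:**
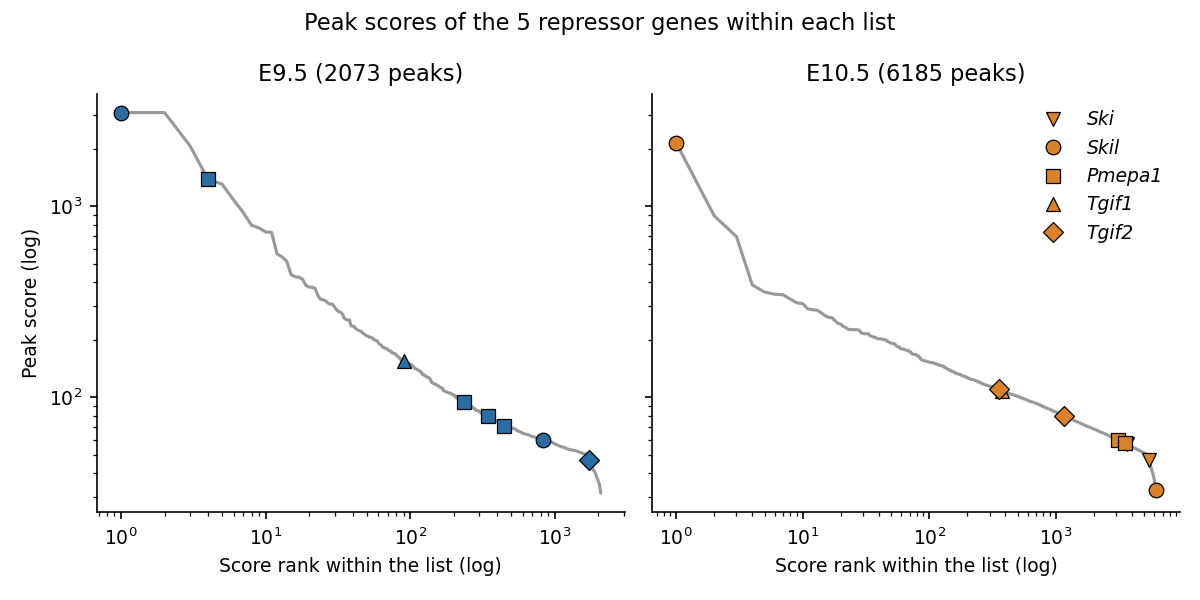
Score against score rank of all peaks of each list (grey lines, log axes), with the peaks of the 5 genes as symbols. Skil holds rank 1 in both lists. The Pmepa1 peaks over the 5′ end have rank 4 of 2073 at E9.5 and rank 3535 of 6185 at E10.5.

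The sequence of the peaks was not used to choose the genes. Within 300 bp around the peak centre, the SMAD box occurred in 5 of 8 E9.5 peaks, beside 60.6% of that list, and in 5 of 9 E10.5 peaks, beside 53.2%. The shares of the members are close to those of the lists. The Skil window was the richest of the 17, with 5 boxes at E9.5, a number that 2.17% of all E9.5 windows reached, and 4 boxes at E10.5, reached by 1.71%. Its GC content was 80.7% and 79.3%, against list medians of 53.0% and 55.0%.

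The Skil window also held the BMP element shown above, 86 bp from the centre of the E9.5 peak and 7 bp from that of the E10.5 peak. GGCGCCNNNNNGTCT, searched on both strands, occurred in 4 of the 2073 E9.5 windows (0.193%) and in 7 of the 6185 E10.5 windows (0.113%). Anywhere in a peak it occurred in 12 E9.5 peaks (0.579%) and 35 E10.5 peaks (0.566%). The nearest protein-coding genes of the other 3 E9.5 windows were Id1, Id2 and Id3, which encode inhibitors of DNA binding and are well-known targets of BMP signalling. Their peaks ranked 710, 13 and 25. At E10.5 the nearest protein-coding genes of the other 6 windows were Id2, Msx2, Srsf7, Six3, AF064781 and Bcl7a, with ranks from 385 to 5701. The genes of these windows were named after the values had been seen. Over the whole peak Skil held 7 matches of GGCGCC at either stage, and 16 SMAD boxes in the E9.5 peak and 15 in the E10.5 peak. The boxes came to 4.77 and 4.84 per kb, and 17.2% of the E9.5 list and 5.80% of the E10.5 list reached these densities.

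At Pmepa1 the peak over the 5′ end had no SMAD box in the central 300 bp at E9.5. Over its whole width it held 20 boxes, or 6.65 per kb, the highest density of the 17 peaks, against a list median of 2.87. A density as high was reached by 5.45% of the E9.5 peaks. Consecutive boxes within 30 bases of each other occurred 6 times in this peak, and 1.98% of E9.5 peaks had as many. The plot of matches along the peaks shows that they gather in the intron downstream of the 5′ end, where the box run printed above lies 938 bp from it. The facing pair at the 5′ end of Pmepa1, CAGAC and GTCTG with 1 base between them, was found in 8 E9.5 peaks (0.386%) and 23 E10.5 peaks (0.372%). The counts of close and facing boxes were added after the values had been seen. The broad E10.5 peak contains all of these boxes and held 43 in total, or 4.08 per kb.

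**Figure D4:**
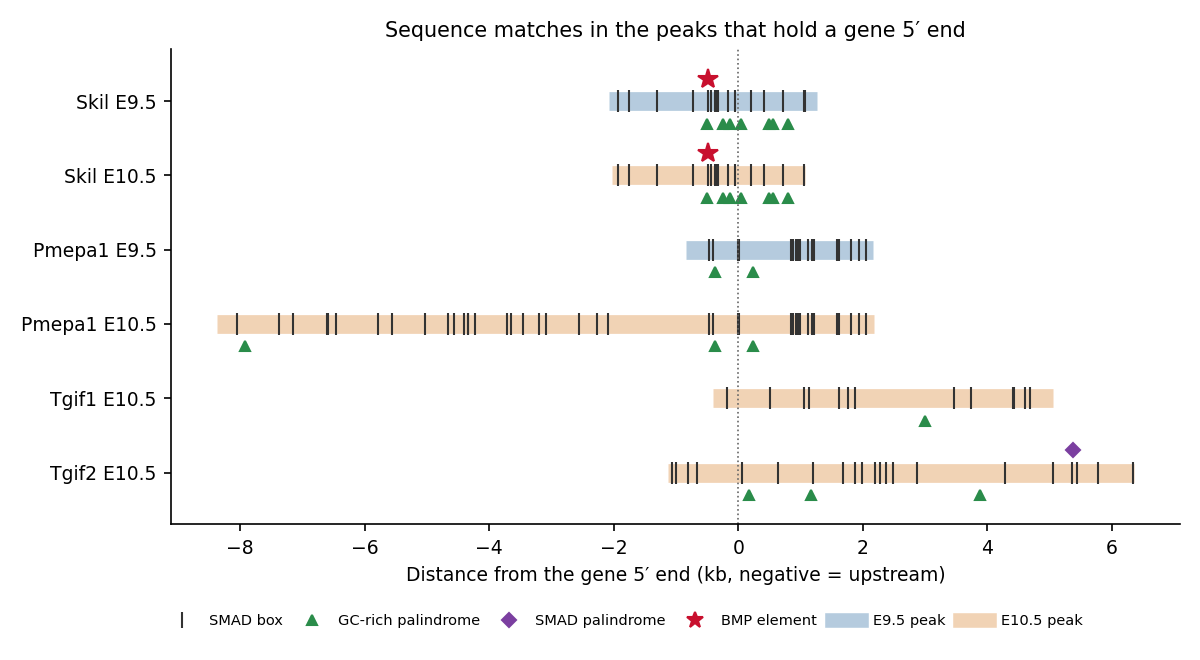
Positions of sequence matches in the 6 peaks that hold the 5′ end of a gene, as distance from that 5′ end in kb. Pale bars are peaks (blue E9.5, orange E10.5), black ticks SMAD boxes, green triangles GGCGCC, purple diamonds the SMAD palindrome and red stars the BMP element. The BMP element occurs at Skil alone, and the E10.5 peak of Pmepa1 extends the E9.5 peak on the upstream side.

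The SMAD palindrome was absent from the central 300 bp of all 17 peaks, beside 1.21% of E9.5 and 0.420% of E10.5 windows that held it. Over whole peaks it occurred in 3 of 8 E9.5 peaks, beside 4.53% of that list. These 3 were the weaker peaks of Pmepa1, and the intronic peak held it 2 times, which was the case in 5 E9.5 peaks in total (0.241%). The palindrome was more frequent in the best-scored 10% of the E9.5 list, at 14.4%, but the 3 Pmepa1 peaks ranked outside that part. In the E10.5 list the palindrome occurred in 2 of 9 member peaks (of Ski and Tgif2), beside 3.62%. A match of letters is a description and not a site of binding. The 3 Pmepa1 peaks were 1532, 2978 and 3488 bp wide, against the list median of 1244 bp, and the part of width in these counts was not tested.

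The number of SMAD boxes per kb of peak was above the list median in 6 of 8 E9.5 peaks, with a median of 5.07 per kb. At E10.5 it was above the list median in 6 of 9, with a median of 2.81 per kb against 2.74. At E9.5 the values ran from 1.96 to 6.65 per kb, and at E10.5 from 1.00 at the weak Skil peak to 5.21 at the peak upstream of Tgif2. At both stages the densities of the members overlapped broadly with those of all peaks.

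**Figure D5:**
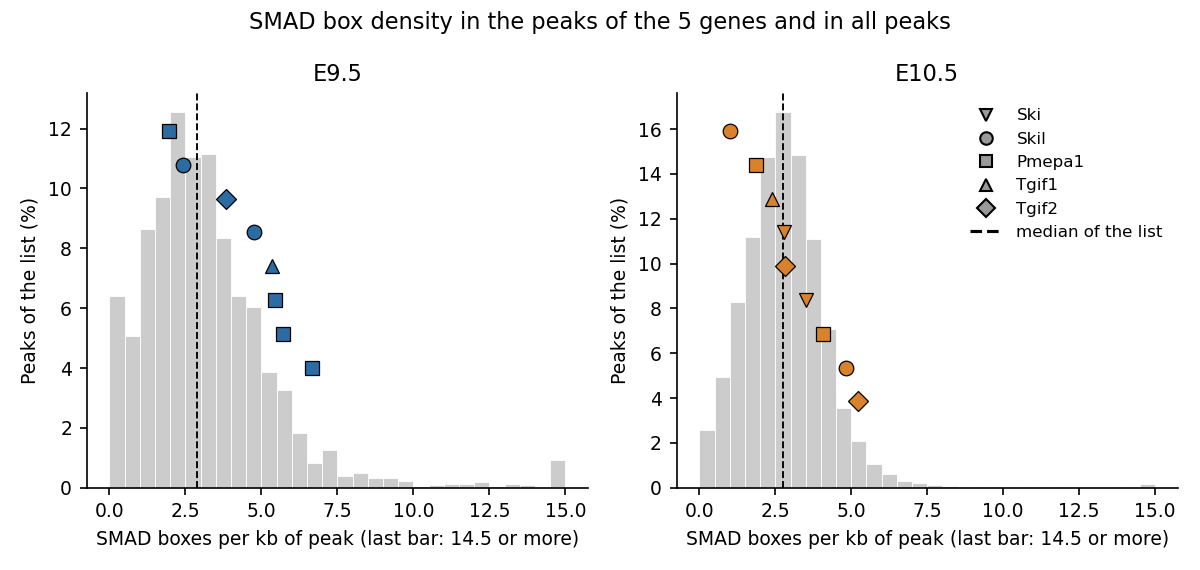
SMAD boxes per kb of peak for all peaks of each list (grey bars, as percent of the list) and for the peaks of the 5 genes (symbols, staggered in height only for legibility). Dashed lines mark the list medians of 2.87 (E9.5) and 2.74 (E10.5), with 6 of 8 and 6 of 9 member peaks to their right.

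The TGIF sequence TGTCA, which TGIF homeodomains are known to bind, occurred in 5 of 8 E9.5 windows, beside 43.7% of the list, and in 6 of 9 E10.5 windows, beside 41.8%. The longer form CTGTCA, which contains TGTCA, occurred in 3 of 8 windows, beside 20.2%, and in 4 of 9, beside 18.9%. AATCCACA, recognised by the SMAD partner FOXH1, was found in 1 window per stage, at the downstream E9.5 peak of Skil and at the E10.5 peak over the 5′ end of Tgif2. In the lists it occurred in 0.917% and 0.744% of windows.

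The promoters themselves, read from 250 bases before to 50 after each 5′ end, differed from each other in other ways than the peaks did. Ski, which had no peak there, had the most GC-rich of the 5 promoters, with 88.3% GC and 9 matches of GGCGC on either strand, and no SMAD box. Skil had 79.3% GC, 9 matches of GGCGC and 2 SMAD boxes. Pmepa1 had 78.7% GC, 6 matches and 2 boxes, Tgif1 56.7% GC, no match and 1 box, and Tgif2 73.3% GC, 1 match and no box. Over all protein-coding genes the median GC content was 55.3%, 44.4% of promoters held GGCGC and 48.5% held a SMAD box.

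Of 22 further genes of the pathway, an E9.5 peak lay within 100 kb of 10 genes, while 17 genes had such a peak in the E10.5 list, beside 20.5% and 52.9% of all protein-coding genes. For 8 and 10 of them the 5′ end lay in a peak, beside 2.11% and 11.3%. All 3 inhibitory SMAD and pseudoreceptor genes, Smad6, Smad7 and Bambi, had a peak over the 5′ end at both stages. Their best peaks ranked 10 (E9.5) and 21 (E10.5) for Smad6, 5 and 3 for Smad7, and 1158 and 233 for Bambi. Among 5 genes of ubiquitin ligases that act on SMADs or their repressors, 2 had a peak at E9.5 and 3 had one at E10.5. The best peaks of Smurf2 ranked 97 (E9.5) and 3068 (E10.5), both over the 5′ end. Those of Smurf1 ranked 161, over the 5′ end, and 3892, at 86.1 kb from it.

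Of the 9 corepressor and partner genes, 4 had a peak at E9.5 and 8 had one at E10.5, beside 20.5% and 52.9% of all protein-coding genes. Ctbp1 was covered at its 5′ end at E9.5, with rank 119, and Ctbp2 at E10.5, with rank 35. Of the 5 relatives of the repressors, 1 had a peak at E9.5 and 3 had one at E10.5, shares near the 20.5% and 52.9% of all protein-coding genes. The one at E9.5 was Ldlrad4, a relative of Pmepa1, with an E9.5 peak of rank 117 over its 5′ end. An E10.5 peak overlapped it and also held the 5′ end, and a separate E10.5 peak 35.5 kb upstream was the better-scored one, with rank 2405. Skor2, Dach2, Zeb1, Rnf111 and Wwp1 had no peak at either stage.

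The pattern of Skil, a top-ranked peak at both stages, was most closely matched by Ncrna00085, Smad7, Id4, Grem1 and Ccny, by the summed difference in log10 rank over the 2 lists. Their best E9.5 peaks within 100 kb ranked 1, 5, 6, 3 and 8, and the best E10.5 peaks 2, 3, 7, 25 and 11. The peak near Id4 lay 33.3 kb upstream, whereas the peak of Smad7 lay 0.991 kb and that of Ccny 0.288 kb inside the gene at E9.5. Some of these peaks are equally the best of neighbouring protein-coding genes, and each set was named by the gene with the nearest 5′ end. The peaks of Ncrna00085 are also those of Fpr1, Fpr2, Fpr3, Gm7535 and Has1, the peaks of Grem1 also those of Arhgap11a and Scg5, and the peaks of Skil also those of 2 other genes.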

How the data were processed

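SMAD4-3xFLAG ChIP-seq reads were aligned to mm9 by the authors with Bowtie 1.1.0, and peaks were called with MACS 1.4 per replicate against input and merged per stage with MSPC. Each line of the deposited lists holds a region and its score, whose unit is not named. The methods state that a merged peak kept the smallest MACS p-value of its replicate calls. The lists and GENCODE vM1 genes of the same build were read with Python 3.11.15, NumPy 2.4.6, pandas 2.3.3, pysam 0.24.0 and Matplotlib 3.10.9. Protein-coding genes on chromosomes with peaks were used. A peak belonged to a gene when its centre lay within 100 kb of the 5′ end of the gene record, and counted as shared from 1 bp of overlap with the other list. Recognition sequences were searched on both strands in the 300 bp around the centre and in whole peaks. GGCGCC contains GGCGC, and the BMP element contains GGCGCC. The counting was tested on simulated data. Named genes were the 5 members, pathway genes with a peak in the best-scored 10% of a list, and the 5 genes closest to Skil in ranks. Not every gene named by this rule is reported here. Pathway genes with no peak and the genes of the other BMP element windows were added. Members and lists were chosen with earlier results of these data known. Windows, overlap rules, score limits and ranking were varied.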

Additional observations from a re-analysis of the deposited data

How the results depend on the processing

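No paired analysis was possible because the authors merged the replicates of each stage into 1 list, and for the same reason no replicate could be left out. Of 36 alternative values for the main counts, 18 stayed within 1.5 times the reported value and 18 moved. The number of E9.5 peaks near the 5 genes, 8 as reported, was 5 within 50 kb and 3 with scores of 100 or more. The number of E10.5 peaks, 9 as reported, was 5 within 50 kb, 17 within 200 kb, 3 with scores of 100 or more and 4 at equal list length. The genes with an E10.5 peak fell from 5 to 3 with scores of 100 or more and to 3 at equal list length. The shared peaks fell from 2 to 1 in each list with a reciprocal overlap of 50%, with centres within 250 bp, and with scores of 100 or more in both lists. Peaks with a SMAD box rose from 5 to 8 at E9.5 and from 5 to 9 at E10.5 when whole peaks were searched. Peaks closest to one of the 5 genes fell from 8 to 4 at E9.5 and from 5 to 3 at E10.5 when the 5′ ends of all annotated transcripts, non-coding ones included, were considered. Unknown depth limits every statement on missing peaks.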
